A study of Homo sapiens with 8 samples.

Results

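Transcripts of 10 genes that mark luminal and apocrine breast epithelium were followed in SKBR3, an established human breast cancer cell line with HER2 amplification. The genes were 7 transcription factors (GATA3, FOXA1, TFAP2A, TFAP2B, TFAP2C, SPDEF and ELF3) and 3 keratins (KRT8, KRT18 and KRT19). They were chosen by name, as every probe set that the platform annotation assigns to 1 of these symbols, which gave 25 probe sets of 54613 and 10 genes of 19775. The study held 8 Affymetrix arrays, 1 for each condition, all taken 3 h after treatment and after 4 h in medium with 10% charcoal-stripped serum. The conditions were E2-BSA, which is estradiol bound covalently to a serum albumin carrier, at 1e-06 M with ICI at 1e-05 M, E2-BSA at 1e-06 M with G15 at 1e-05 M, G15 alone at 1e-05 M, free estradiol at 1e-06 M, E2-BSA alone at 1e-06 M, the carrier BSA at 1e-06 M, ethanol at 0.1%, which is the vehicle of estradiol, and untreated cells. G15 is an antagonist of the membrane estrogen receptor GPER, and the labels name the other antagonist only as ICI. The vehicle of G15 and ICI is not stated in the labels.

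Every value below is a deposited log value, read as log2, that is centred on 0 for each probe set. The sources used here do not give the base of the logarithm, and folds would be larger if it were e. Because of the centring, a value says how far an array lay above or below the middle of the arrays, not how strongly the gene was expressed. Levels of different genes therefore cannot be compared, and neither the presence of these markers in SKBR3 nor the absence of basal ones can be read from the values. A gene value is the mean of its probe sets. With 1 array per condition there is no replicate error, no interval and no test, so the text gives sizes and, where a gene has several probe sets, the range over them. Probe sets of a gene read the same RNA and are not replicates.

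As background, luminal cells line the ducts and alveoli of the breast, and apocrine cells are a luminal variant found in many tumours that lack nuclear estrogen receptor alpha. FOXA1 is a pioneer factor that opens chromatin for steroid receptors, and GATA3 is a zinc finger factor needed for luminal differentiation. The AP-2 proteins TFAP2A, TFAP2B and TFAP2C bind GC-rich elements, and TFAP2C is a known activator of the HER2 gene. SPDEF and ELF3 are epithelial ETS factors, and ELF3 is also known to be induced through NF-kB by inflammatory cytokines. KRT8 and KRT18 form the intermediate filament pair of simple epithelia, and KRT19 is a further type I keratin of luminal cells.

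The promoters of ELF3, TFAP2B and SPDEF are shown because these genes differed on the ethanol array in all of their probe sets and because each holds 1 match to 1 of the 2 rarest searched motifs. They were chosen after their values and matches were seen, so that each holds a match is not a result. FOXA1, GATA3, KRT8 and KRT18 also differed from untreated in all of their probe sets on that array. The sequences are from RefSeq (GRCh38.p14) and run 5′ to 3′ from 250 bases before the start site to 50 bases after it. They lie at chr1:202010337-202010636 on the plus strand (ELF3), chr6:50818621-50818920 on the plus strand (TFAP2B) and chr6:34556280-34556579 on the minus strand (SPDEF). Capitals mark the matches.
ELF3: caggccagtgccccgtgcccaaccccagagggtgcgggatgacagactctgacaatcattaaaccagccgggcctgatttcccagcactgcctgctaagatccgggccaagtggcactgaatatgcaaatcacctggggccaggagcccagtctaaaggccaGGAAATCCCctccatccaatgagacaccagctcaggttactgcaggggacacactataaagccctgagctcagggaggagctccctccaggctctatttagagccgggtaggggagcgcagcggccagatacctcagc
TFAP2B: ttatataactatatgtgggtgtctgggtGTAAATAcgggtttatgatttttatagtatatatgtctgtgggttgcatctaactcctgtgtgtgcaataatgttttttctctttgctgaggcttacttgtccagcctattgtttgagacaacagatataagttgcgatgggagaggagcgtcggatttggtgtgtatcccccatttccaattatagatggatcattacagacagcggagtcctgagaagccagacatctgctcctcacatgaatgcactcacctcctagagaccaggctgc
SPDEF: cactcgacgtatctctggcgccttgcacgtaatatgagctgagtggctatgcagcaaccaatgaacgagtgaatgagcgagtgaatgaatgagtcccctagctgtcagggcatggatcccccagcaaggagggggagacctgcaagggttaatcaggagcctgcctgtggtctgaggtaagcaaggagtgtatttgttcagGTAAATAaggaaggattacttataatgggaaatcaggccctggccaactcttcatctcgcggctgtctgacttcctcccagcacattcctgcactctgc

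All motifs were searched on both strands, among them a kappaB form (GGGANTTCC) bound by NF-kB and an AP-2 form (GCCNNNGGC). The long forkhead form reads TGTTTAC in these searches. For forkhead factors a second, short form was also searched and reads TATTTAC. The GATA form has the core AGATAA for this purpose. For ETS factors such as SPDEF and ELF3 the searched letters were CCGGAA. The ELF3 promoter held a kappaB match, on the opposite strand, whose first base lies 88 bases before the start, a form that 1.85% of 35116 promoters hold. The promoters of TFAP2B and SPDEF held a match to the short forkhead form on the opposite strand, beginning 222 and 49 bases before the start, and 2.67% of promoters hold one. Of the other shares, 23.2% of promoters held the AP-2 form, 17.2% the ETS form, 10.3% the GATA form and 3.42% the long forkhead form. The 3 promoters shown held no other match, so none overlapped. In all, 7 members had 13 promoters in the RefSeq table. The KRT8 promoter and 2 of the 6 GATA3 promoters held the ETS form, 3 of the GATA3 promoters held the AP-2 form, and the promoters of FOXA1 and TFAP2A held none of the 6 forms. Promoters of KRT18, KRT19 and TFAP2C were not used here. A match describes letters in these windows only.

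Across the 8 arrays the factors had a wider median range than the keratins, with no test of that difference. The median range from the lowest to the highest array was 0.45 for the 7 factors and 0.22 for the 3 keratins, beside 0.34 for all genes. ELF3 had the widest range at 1.01, wider than 98.2% of genes, and TFAP2B followed at 0.70, wider than 93.1%. KRT18 had the narrowest at 0.12, and 2.48% of genes had a smaller one. The ethanol array stands apart from the rest in the whole series, with an SD over genes of 0.28 beside 0.087 to 0.15 on the other arrays. Without it the range was 0.58 for ELF3 and 0.33 for TFAP2B. The widths of FOXA1 (0.45), TFAP2A (0.35), TFAP2C (0.25) and KRT19 (0.26) did not involve that array and stayed as they were. Of the members, 4 were lowest with ethanol (TFAP2B, SPDEF, KRT8 and KRT18), as were 26.3% of all genes, and 3 with G15 (GATA3, FOXA1 and ELF3), as were 9.74%.

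**Figure D1:**
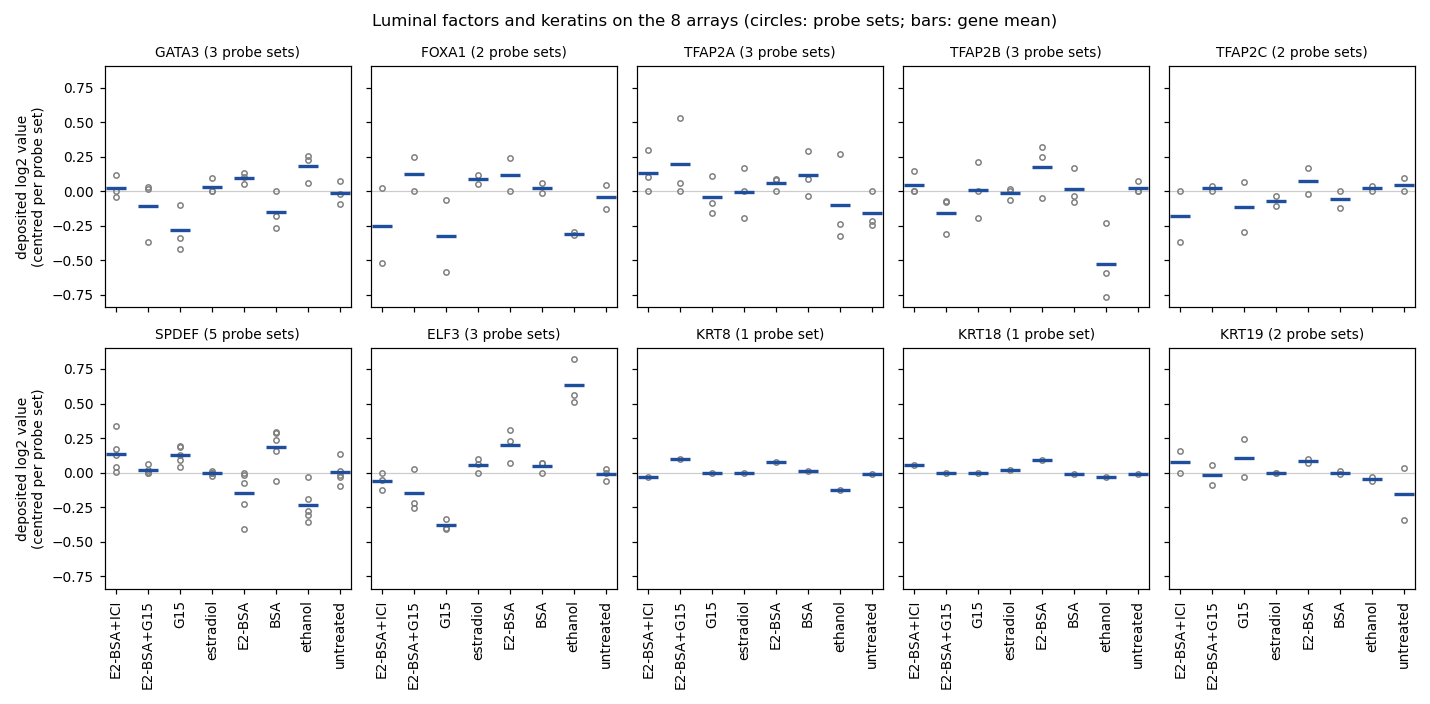
Deposited log2 value, centred for each probe set (vertical axis), of the 10 genes on each of the 8 arrays (horizontal axis). Open circles are probe sets and bars are the gene mean. ELF3 is highest with ethanol at 0.63 and lowest with G15 at -0.38, TFAP2B is lowest with ethanol at -0.53, and KRT8 and KRT18 stay between -0.12 and 0.100.

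ELF3 stood at -0.060 with E2-BSA plus ICI, -0.15 with E2-BSA plus G15, -0.38 with G15, 0.053 with estradiol, 0.20 with E2-BSA, 0.047 with BSA, 0.63 with ethanol and -0.012 untreated. The ethanol array was far above the other 7, E2-BSA was next, and the G15 array lay below all others. GATA3 stood at 0.025 with E2-BSA plus ICI, -0.11 with E2-BSA plus G15, -0.28 with G15, 0.032 with estradiol, 0.097 with E2-BSA, -0.15 with BSA, 0.18 with ethanol and -0.012 untreated. Like ELF3, it was highest with ethanol, next highest with E2-BSA and lowest with G15, in a span of 0.46.

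FOXA1 stood at -0.25 with E2-BSA plus ICI, 0.12 with E2-BSA plus G15, -0.33 with G15, 0.085 with estradiol, 0.12 with E2-BSA, 0.022 with BSA, -0.31 with ethanol and -0.040 untreated. G15, ethanol and E2-BSA plus ICI were its low arrays, and the 5 others lay between -0.040 and 0.12. The low values do not rest on the same probe sets. On the ethanol array the 2 probe sets were alike at -0.30 and -0.32. With E2-BSA plus ICI they stood at 0.020 and -0.52, and with G15 at -0.066 and -0.59, so there the difference lies mostly in 237086_at.

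The AP-2 genes did not share a pattern. TFAP2B stood at 0.048 with E2-BSA plus ICI, -0.16 with E2-BSA plus G15, 0.0066 with G15, -0.016 with estradiol, 0.17 with E2-BSA, 0.018 with BSA, -0.53 with ethanol and 0.024 untreated. Ethanol lay far below the others, of which E2-BSA plus G15 was the next lowest. TFAP2A stood at 0.13 with E2-BSA plus ICI, 0.20 with E2-BSA plus G15, -0.046 with G15, -0.0094 with estradiol, 0.056 with E2-BSA, 0.11 with BSA, -0.097 with ethanol and -0.15 untreated, so that the untreated array was the lowest. Its probe sets disagreed: on the ethanol array 210669_at stood at 0.27 and 204654_s_at at -0.32. TFAP2C stood at -0.18 with E2-BSA plus ICI, 0.021 with E2-BSA plus G15, -0.11 with G15, -0.073 with estradiol, 0.072 with E2-BSA, -0.060 with BSA, 0.019 with ethanol and 0.046 untreated. That spread came from 205287_s_at, which was lowest with E2-BSA plus ICI at -0.37 and highest with E2-BSA at 0.16, while 205286_at stayed between -0.035 and 0.063.

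SPDEF stood at 0.14 with E2-BSA plus ICI, 0.016 with E2-BSA plus G15, 0.13 with G15, -0.0025 with estradiol, -0.15 with E2-BSA, 0.18 with BSA, -0.23 with ethanol and 0.0017 untreated. It was lowest with ethanol and next lowest with E2-BSA, where its probe sets lay between -0.41 (213442_x_at) and 0 (220192_x_at). All 5 of its probe sets end in _x_at, which marks probes that can match several transcripts.

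Among the keratins, KRT8 stood at -0.033 with E2-BSA plus ICI, 0.100 with E2-BSA plus G15, 0 with G15, -0.0042 with estradiol, 0.079 with E2-BSA, 0.0098 with BSA, -0.12 with ethanol and -0.0084 untreated. KRT18, its filament partner, stood at 0.055 with E2-BSA plus ICI, -0.0031 with E2-BSA plus G15, 0 with G15, 0.019 with estradiol, 0.093 with E2-BSA, -0.0083 with BSA, -0.031 with ethanol and -0.012 untreated. Each rests on 1 probe set of the _x_at kind, and the RefSeq gene table lists 52 pseudogene records for KRT8 and 68 for KRT18, so a part of the signal may not be split from near-identical copies. KRT19 stood at 0.077 with E2-BSA plus ICI, -0.016 with E2-BSA plus G15, 0.10 with G15, -0.0013 with estradiol, 0.085 with E2-BSA, -0.00051 with BSA, -0.046 with ethanol and -0.15 untreated. The low untreated value came from 228491_at at -0.34, while 201650_at stood at 0.036 there and was highest with E2-BSA at 0.097. All 3 keratins lay between 0.079 and 0.093 with E2-BSA.

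In each of 11 comparisons, members were counted where the difference, first array minus second, was at least 1.5-fold in size (0.58 on the log2 scale). Only ELF3 on ethanol minus untreated passed.

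**Figure D2:**
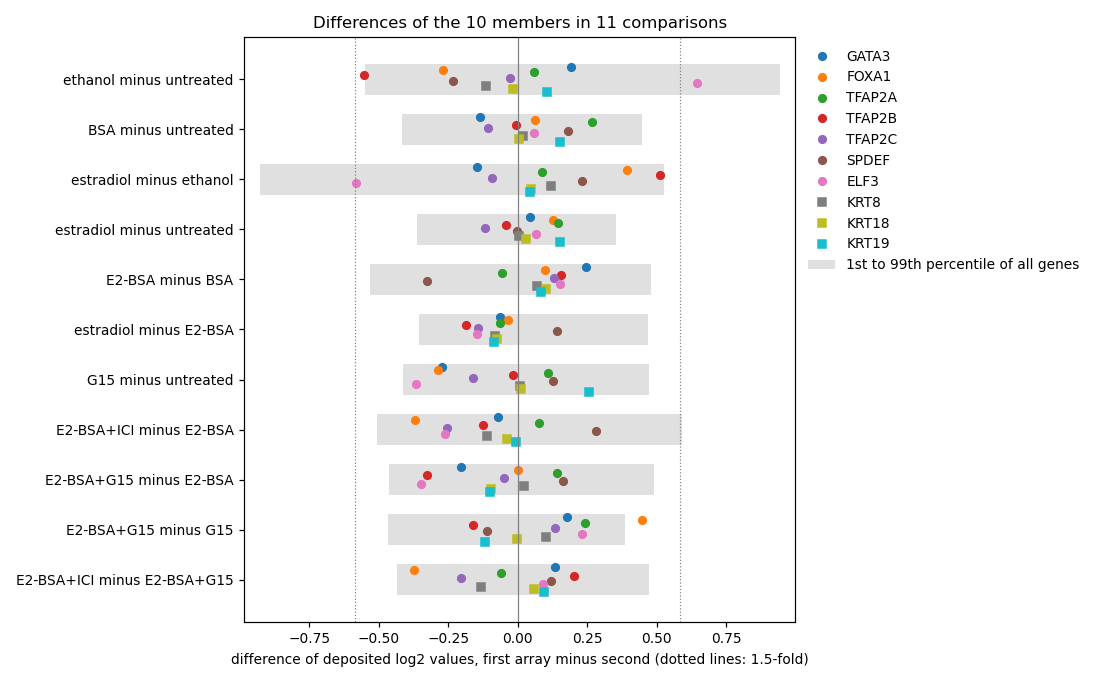
Difference of deposited log2 values, first array minus second (horizontal axis), for the 10 members in 11 comparisons (rows). Circles are factors, squares are keratins, grey bars span the 1st to 99th percentile of all genes and dotted lines mark 1.5-fold. ELF3 lies at 0.65 for ethanol minus untreated, TFAP2B at -0.55, and FOXA1 at 0.45 for E2-BSA plus G15 minus G15.

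Ethanol, the vehicle of estradiol, was compared with no treatment. With 1 array each, an effect of the vehicle cannot be told apart from a difference of the sample or array. ELF3 was higher with ethanol by 0.65 (1.56-fold), between 0.51 and 0.88 over its 3 probe sets. This was 1 member of 10 at 1.5-fold, where 3.70% of all genes passed in either direction and 2.98% were higher. TFAP2B was lower in all 3 probe sets, with a difference of -0.55 and a range of -0.84 to -0.23 over them. TFAP2B ranked 188 from the lowest of 19775 genes. FOXA1 differed by -0.27, SPDEF by -0.23 in 5 of 5 probe sets below 0, and GATA3 by 0.19 in 3 of 3 above 0. KRT8 differed by -0.12, KRT18 by -0.019 and KRT19 by 0.11. The members' median was -0.023 and that of all genes -0.028. The ELF3 difference was 0.36 after quantile normalization between arrays, which pulls in the wide ethanol array, and TFAP2B differed by -0.49 there. The ELF3 call also rested on the mean of its probe sets: with their median ELF3 gave 0.56 and without probe sets ending in _x_at or _s_at 0.53, both short of 1.5-fold, while TFAP2B passed at -0.60 and -0.72.

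Estradiol was compared with ethanol, which the labels name as its vehicle, and with untreated cells. The labels do not say how much ethanol the estradiol sample held, so it is unknown whether the ethanol array matches it. Against ethanol no member passed, where 3.40% of genes did. ELF3 came closest at -0.58 (-0.82 to -0.41 over its probe sets), TFAP2B was higher by 0.51 (0.17 to 0.78) and FOXA1 by 0.39 (0.35 to 0.44). All 3 had the opposite sign on ethanol minus untreated, which shares the ethanol array. Against untreated cells, ELF3 differed by 0.065 and TFAP2B by -0.041, and the largest member differences were KRT19 at 0.15, TFAP2A at 0.15, FOXA1 at 0.13 and TFAP2C at -0.12. No member passed against untreated cells, where 0.177% of genes did. The median size of the members' differences was 0.055 there, beside 0.071 for all genes. Against BSA, ELF3 differed by 0.0060, TFAP2B by -0.034 and FOXA1 by 0.064 with estradiol. These comparisons share the estradiol array.

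BSA, the carrier, was set against untreated cells, and E2-BSA against BSA. With BSA no member passed against untreated cells, beside 0.556% of genes, and the largest difference was TFAP2A at 0.27, from -0.035 to 0.51 over its probe sets. With E2-BSA no member passed against BSA, beside 198 of 19775 genes, or 1.0%. SPDEF was lower with E2-BSA, at -0.33 and between -0.38 and -0.25 over its 5 probe sets. GATA3 was higher by 0.25 with 3 of 3 probe sets above 0, and the keratins by 0.069 (KRT8), 0.10 (KRT18) and 0.085 (KRT19). In total 8 of 10 members were higher, with a median of 0.100, beside 49.3% of all genes and a median of 0. The BSA array held the highest SPDEF value of all arrays, and against untreated cells SPDEF differed by -0.15 with E2-BSA, TFAP2A by 0.21 (-0.057 against BSA), GATA3 by 0.11, KRT8 by 0.087, KRT18 by 0.10 and KRT19 by 0.24. These comparisons share the BSA, E2-BSA or untreated arrays.

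Free and coupled hormone were set side by side at the same stated molarity and time. They differ by the albumin attached to the estradiol, and the vehicle may differ too. No ethanol is listed for E2-BSA and its amount with estradiol is not given, so albumin and vehicle cannot be told apart. The labels do not say whether the molarity of E2-BSA counts the conjugate or the hormone on it. Estradiol minus E2-BSA left no member at 1.5-fold, beside 0.384% of genes. Of the members, 9 were lower with estradiol, from TFAP2B at -0.19 and ELF3 at -0.15 to FOXA1 at -0.035, and SPDEF was higher by 0.14. The keratins differed by -0.083 (KRT8), -0.074 (KRT18) and -0.086 (KRT19). The members' median was -0.079, beside -0.011 for all genes, of which 52.6% were lower. This comparison shares the E2-BSA array with E2-BSA minus BSA. With 1 array each no interval of these differences can be given, so likeness is not shown either.

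G15 was given alone and together with E2-BSA, and each can be set against its own array without G15. These 2 comparisons share no array. ELF3 stood at -0.38 with G15 against -0.012 untreated, and at -0.15 with E2-BSA plus G15 against 0.20 with E2-BSA. Its differences were -0.37 (-0.43 to -0.27 over 3 probe sets) and -0.35 (-0.56 to -0.043), lower in 6 of 6 probe set values. In both comparisons 51 genes, or 0.258% of all genes, were at or below the ELF3 values, ELF3 included. ELF3 was the lowest member in both, so this share is that of an extreme picked from the same values.

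GATA3 gave -0.27 without E2-BSA and -0.20 with it. All probe sets lay below 0, from -0.49 to -0.0089 without E2-BSA and from -0.50 to -0.027 where E2-BSA was present, so that 209603_at hardly differed in either. In both comparisons 1.22% of genes were at least this low. TFAP2C and TFAP2B also lay below 0 in both, TFAP2C at -0.16 and -0.051 and TFAP2B at -0.018 and -0.33. TFAP2A (0.11 and 0.14), SPDEF (0.13 and 0.16) and KRT8 (0.0084 and 0.021) lay above 0 in both. FOXA1 (-0.29 and 0.0025), KRT18 (0.012 and -0.096) and KRT19 (0.26 and -0.10) had opposite signs. In all 4 members were below 0 in both comparisons and 3 above, beside 27.3% and 28.0% of all genes. No member reached 1.5-fold in either, where 0.531% (G15 minus untreated) and 0.794% (E2-BSA plus G15 minus E2-BSA) of genes did.

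The sign of several members depended on the array set against. With the BSA array in that place, ELF3 stayed below 0, at -0.43 with G15 and -0.20 with E2-BSA plus G15. GATA3 gave -0.14 with G15 and 0.041 with E2-BSA plus G15. SPDEF turned negative in both, at -0.055 with G15 and -0.17 with E2-BSA plus G15. TFAP2A gave -0.16 with G15 and 0.082 with E2-BSA plus G15, KRT8 -0.0098 and 0.090, TFAP2C -0.054 and 0.081, and KRT18 0.0083 and 0.0052. These 2 differences share the BSA array. TFAP2A and TFAP2C also changed sign in both G15 comparisons when probe sets ending in _s_at were left out, TFAP2A to -0.00082 and -0.054 and TFAP2C to 0.063 and 0.059.

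**Figure D3:**
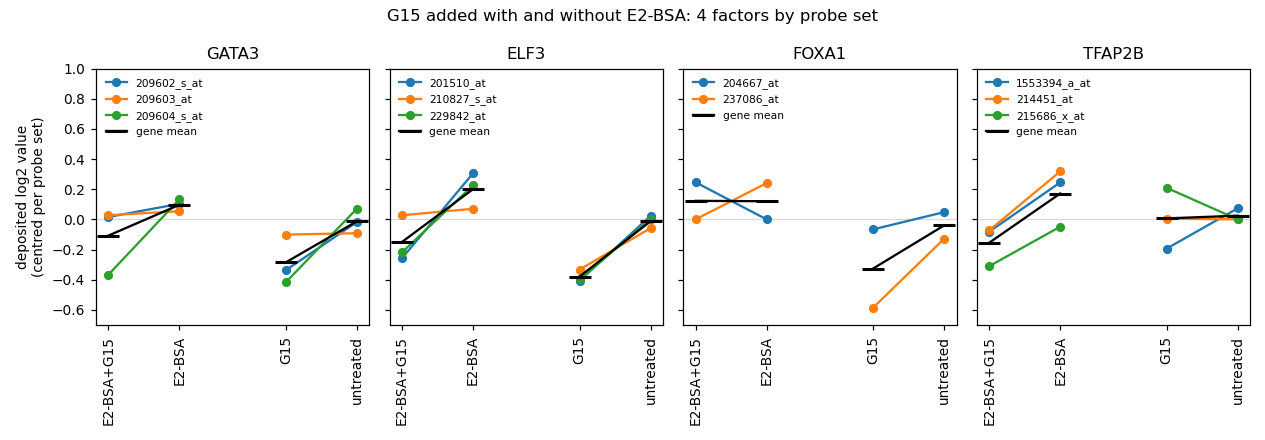
Deposited log2 value, centred for each probe set (vertical axis), for GATA3, ELF3, FOXA1 and TFAP2B on the E2-BSA plus G15 and E2-BSA arrays and on the G15 and untreated arrays. Coloured lines are probe sets and black bars the gene mean. The ELF3 means are lower with G15 in both pairs, at -0.35 with E2-BSA and -0.37 without, whereas FOXA1 differs by 0.0025 and -0.29.

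E2-BSA plus G15 against G15 alone asks what the hormone and its carrier add together under the antagonist. No array held BSA with G15, so hormone and carrier cannot be told apart here. FOXA1 was higher by 0.45 (1.36-fold), with 0.31 and 0.59 in its 2 probe sets, and ranked 102 from the highest of all genes. TFAP2A followed at 0.24 and ELF3 at 0.23, each with 3 of 3 probe sets above 0, and TFAP2B differed by -0.16. No member passed at 1.5-fold in the gene mean, beside 0.491% of genes, and the members' median was 0.12 beside -0.017 for all genes. The G15 array is the lowest for FOXA1, ELF3 and GATA3, and this comparison shares it with G15 minus untreated.

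ICI was added to E2-BSA and compared with E2-BSA alone. FOXA1 differed by -0.37, which rests on 237086_at at -0.76 since 204667_at gave 0.020. ELF3 was lower, at -0.26, with 3 of 3 probe sets below 0 (-0.43 to -0.070), TFAP2C differed by -0.25 and SPDEF was higher by 0.28 with 5 of 5 probe sets above 0. The keratins differed by -0.11 (KRT8), -0.038 (KRT18) and -0.0073 (KRT19). In total 8 of 10 members were lower, with a median of -0.092, beside 46.8% of all genes and a median of 0.0078. No member passed, where 1.60% of genes did. This comparison shares the E2-BSA array with E2-BSA minus BSA and estradiol minus E2-BSA. Against the BSA array 5 members were above 0 and 5 below with E2-BSA plus ICI, with a median of -0.011. Of all genes 51.9% were above 0 there, with a median of 0.0073. FOXA1 differed by -0.27 and ELF3 by -0.11 against BSA, while SPDEF turned to -0.047. Without its _s_at probe set TFAP2C gave 0.020 on E2-BSA plus ICI minus E2-BSA.

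Between the antagonist combinations, E2-BSA+ICI minus E2-BSA+G15 gave no member at 1.5-fold, beside 0.531% of genes. FOXA1 was the largest at -0.37, with -0.23 and -0.52 in its probe sets, and ranked 348 from the lowest. TFAP2C differed by -0.20 with 2 of 2 probe sets below 0 and TFAP2B by 0.20 with 3 of 3 above 0.

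Other genes of the same programme were read from lists of names. Of 18 luminal genes, among them the secretory pathway factor XBP1 and the secreted TFF1, 0 reached 1.5-fold on ethanol minus untreated, beside 3.70% of all genes. The luminal list medians in the 11 comparisons lay between -0.057 and 0.052. TFF3, a trefoil peptide, was higher with BSA than in untreated cells by 0.59, and AGR3 with E2-BSA plus ICI than with E2-BSA by 0.60, each on 1 probe set. Of 14 measured apocrine genes, the tryptophan pathway enzyme KMO was higher with ethanol by 1.14 over untreated and differed by -1.03 on estradiol minus ethanol. Both KMO differences share the ethanol array. AZGP1, a secreted apocrine glycoprotein, was higher by 0.71 with BSA than untreated, and MUCL1, a small mucin, by 0.66 with E2-BSA plus ICI than with E2-BSA plus G15. No other apocrine gene reached 1.5-fold in any of the 11 comparisons, where 0.177% to 3.70% of all genes did.

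A list of relatives of the member factors held GATA, FOXA, AP-2, ETS, grainyhead and OVO family genes, with KLF5, ZNF217 and TCIM, 20 in all. Among them, EHF and GRHL2 are also in the luminal list. On ethanol minus untreated 4 of the 20 were at least 1.5-fold higher and 0 lower, beside 2.98% of all genes higher. The list was chosen with earlier results of these data known, so the count is not a result about such factors. The 4 were TCIM by 1.98, ZNF217, a zinc finger factor amplified in some breast cancers, by 1.10, GATA6 by 0.85 and OVOL1 by 0.64. Against ethanol the same genes differed with estradiol by -1.93 (TCIM), -1.28 (ZNF217), -0.96 (GATA6) and -1.08 (OVOL1), where 3.40% of all genes reached 1.5-fold. Both comparisons share the ethanol array. On estradiol minus untreated 0 of the 20 were 1.5-fold higher and 0 lower, beside 0.177% of all genes in either direction. TCIM also differed by -0.63 on E2-BSA plus G15 minus E2-BSA. The list median on ethanol minus untreated was 0.014, beside -0.028 for all genes.

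Of 14 other simple keratins and junction genes, only KRT23 reached 1.5-fold, at -0.65 on E2-BSA plus G15 minus E2-BSA, where 0.794% of all genes did. With ICI added to E2-BSA, 12 of these 14 were lower and the median was -0.18, beside 46.8% of all genes lower and a median of 0.0078. In that comparison the mesenchymal list had a median of 0.086 with 8 of 11 above 0, and the basal list 0.077 with 5 of 9 above 0, beside 51.4% of all genes. Lists were one-sided in other comparisons too. On estradiol minus untreated 3 of these 14 and 1 of 11 mesenchymal genes were above 0, beside 47.2% of all genes. On BSA minus untreated 0 of 11 mesenchymal genes were, beside 48.1%. Markers of other cell types were read in the same way. Of 9 measured basal and myoepithelial markers only KRT5, a basal keratin, passed, on 1 probe set. It differed by -0.73 on BSA minus untreated, -0.71 on G15 minus untreated and 0.83 on E2-BSA plus ICI minus E2-BSA. The differences from untreated share that array, where KRT5 stood at 0.45, beside -0.29 with BSA and -0.26 with G15. The basal list medians lay between -0.15 and 0.15. Of 11 mesenchymal markers 0 passed in any comparison, where 0.177% to 3.70% of all genes did. On ethanol minus untreated the basal median was -0.12 with 2 of 9 above 0 and the mesenchymal median -0.11 with 3 of 11 above 0. Of all genes 42.1% were above 0 in that comparison, with a median of -0.028. On G15 minus untreated the basal median was 0.019 and the mesenchymal one -0.040, and on E2-BSA plus G15 minus E2-BSA they were -0.15 and 0.032. The part of these markers in the members' differences was not tested.

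The genes whose values over the 8 arrays were most like those of the 3 widest members were found by Pearson r. For ELF3 they were MON1B (r = 0.983), ASB7 (0.982) and C10orf95-AS1 (0.982). For TFAP2B they were MTARC1 (0.993), FHDC1 (0.984) and GSTK1 (0.982). For GATA3 they were BTG1 (0.987), EFCAB3 (0.975) and KMT5B (0.971). Without the ethanol array, over 7 arrays, r was 0.970, 0.953 and 0.944 for the ELF3 genes, 0.960, 0.916 and 0.920 for the TFAP2B genes and 0.982, 0.967 and 0.984 for the GATA3 genes, in the same order. Spearman's rho over the 8 arrays was 0.61 for GSTK1 and 0.79 for FHDC1, and 0.86 or more for the others. These genes are the highest of 19775 genes over 8 points that share 1 cell line, so values near 1 describe the choice.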

How the data were processed

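Total RNA of 8 SKBR3 samples was labelled with biotin by the Affymetrix protocol, per the labels' protocols, and read on arrays of the HG-U133 Plus 2 type. The authors deposited 1 value per probe set and array, read here as log2. They lie between -2.27 and 7.85, the median of every array is 0, and at most 4 of 8 arrays lie above 0 in any probe set, as in values centred per probe set. Summarization, software and normalization remain not given in the sources used here.

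Control probe sets were left out, 54613 of 54675 remaining. The platform annotation gave 1 gene to 41091 of them, several to 1801 and none to 11721, and symbols were updated through gene identifiers for 41037. A gene is the mean of its probe sets (19775 genes). No filter on low values was possible. Differences of 2 arrays were taken in 11 comparisons with Python 3.11.15, numpy 2.4.6 and pandas 2.3.3, and the code was tested on simulated data. The number of arrays limits the precision, and detection is unknown. No batch is given.

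The members, gene lists, motifs and comparisons were chosen with earlier results of these data known. Named genes are all members, list genes at 1.5-fold, and for the 3 widest members the 3 genes with the highest Pearson r. Alternatives were array centring, quantile normalization, other summaries of probe sets and other comparator arrays. The range without the ethanol array was added after seeing the data.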

Additional observations from a re-analysis of the deposited data

How the results depend on the processing

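Of 61 recomputed medians over the members, 61 moved by less than 0.166, the SD over genes of BSA minus untreated that served as the spread in the absence of replicates. The reported medians themselves lay between -0.092 and 0.12, so a median could change sign and still count as unmoved. On estradiol minus ethanol the median was 0.068 as reported and -0.0067 with BSA as the comparator. Array centring, which could not move a median, is among the 61. The count of members at 1.5-fold on ethanol minus untreated was 1 (ELF3) as reported and 1 with the median of probe sets or without those ending in _x_at or _s_at, but that 1 was TFAP2B, not ELF3. It was 0 after quantile normalization and 2 (TFAP2B and ELF3) with the probe set of the largest SD for each gene. On estradiol minus ethanol it was 0 as reported, 1 (TFAP2B) with the median of probe sets and 1 (TFAP2B) without probe sets ending in _x_at or _s_at, and 2 (TFAP2B and ELF3) with the probe set of the largest SD. With that probe set it was also 1 (FOXA1) on E2-BSA plus ICI minus E2-BSA and 1 (FOXA1) on E2-BSA plus G15 minus G15, against 0 as reported. Single members were recomputed 620 times, of which 560 moved by less than the spread and 60 by more. Of the 560, 110 were array centring, which could not move them, and these are also among the 550 values below. KRT8 and KRT18 have 1 probe set each, which other summaries of probe sets cannot change. The sign changed, in differences short of 1.5-fold, for 31 of all 550 values under another processing of the same arrays and for 23 of all 60 against another comparator array. Among the last, on estradiol minus BSA GATA3 gave 0.18 and SPDEF -0.18, against -0.15 and 0.23 on estradiol minus ethanol. The cause was not tested, except that the largest-SD probe set is by construction the widest, and quantile normalization narrows the ethanol array. Without probe sets ending in _x_at or _s_at, GATA3 differed by -0.0089 on G15 minus untreated and by -0.027 on E2-BSA plus G15 minus E2-BSA. No paired analysis was possible because each condition has 1 array. Without signal over background, members that are not expressed cannot be told apart from those that are.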
